A study of Homo sapiens with 5 samples.

Results

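The nuclear genes for the subunits of oxidative phosphorylation were examined in HaCaT cells, an established human keratinocyte line, in libraries labelled as AHNAK knockdown and in control libraries. Rows of the deposited expression table were taken by symbol prefix (NDUFA, NDUFB, NDUFC, NDUFS, NDUFV, SDHA to SDHD, UQCR, COX4 to COX8 and ATP5, with CYC1 and CYCS) and kept where the 5 libraries averaged 1 FPKM or more. FPKM adjusts a fragment count for transcript length and for the size of the library. Of 110 rows with these prefixes, 13 for assembly factors and 4 for pseudogenes were left out and 12 lay under 1 FPKM, which left 81 of the 27933 symbols in the table. They fall into 38 for complex I, 4 for complex II, 10 for complex III, 13 for complex IV, 15 for complex V and 1 for cytochrome c. NDUFA4 and NDUFA4L2 were counted with complex IV, where the NDUFA4 protein is found. Subunit genes make up 76 of the 81, and the other 5 are the antisense row NDUFB2-AS1, the paralogs UQCRHL, NDUFA4L2 and COX7A2L, and ATP5S, which is no structural subunit. The row just inside the limit was NDUFB2-AS1 at a mean of 1.04 FPKM, and the row just outside was NDUFV2-AS1 at 0.907 FPKM.

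Total RNA was profiled in 3 knockdown and 2 control libraries of HaCaT cells grown in the same serum-containing medium. The labels call the cells a knockdown, the design text of the series calls them a knockout, and neither the agent used nor the time after it is given. Nothing states that the replicates are separate cultures, and any p-value here speaks to the spread among these 5 libraries, which may be technical. AHNAK itself, a giant scaffold protein, stood at 114, 69.6 and 115 FPKM in knockdown replicates 1, 2 and 3, against 205 and 242 FPKM in control replicates 1 and 2, so its transcripts were lower in every knockdown library. Its log2 difference was -1.19 (SE 0.24, limma Benjamini-Hochberg adjusted p = 0.372). RNA came from bulk cells, in which fewer cells of a kind and less RNA per cell cannot be told apart.

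Oxidative phosphorylation is carried out in the inner mitochondrial membrane. Complex I takes electrons from NADH and complex II takes them from succinate. Both pass them through coenzyme Q to complex III, and cytochrome c carries them on to complex IV, which reduces oxygen. Complexes I, III and IV pump protons, and complex V, the ATP synthase, lets them back to make ATP. Most subunits are encoded in the nucleus and a few core subunits of complexes I, III, IV and V by mitochondrial DNA, whose genes have no row among those analysed here. In the epidermis, oxidants from mitochondria are known to promote the differentiation of keratinocytes.

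The libraries differed in ways that touch these genes. All 12 keratinocyte markers reached 1 FPKM in every library, with sums of 4664 to 6466 FPKM in knockdown and 6925 to 8559 FPKM in control. KRT5 and KRT14 made up most of these sums. KRT14, KRT6A, KRT17, TP63, ITGB4, ITGA6 and SFN were lower in every knockdown library than in both controls. For KRT5, DSG3, DSC3, PKP1 and COL17A1 the groups overlapped. COL17A1 was at 209, 227 and 164 FPKM in knockdown replicates 1, 2 and 3, against 172 and 151 FPKM in control replicates 1 and 2. Sums over markers of other cell types were 6.12 to 10.2 FPKM in knockdown and 3.301 to 5.02 FPKM in control for 7 fibroblast genes. Of these, DCN, COL3A1 and LUM were higher and COL1A1 lower in every knockdown library than in both controls. For 6 leukocyte genes the sums were 21.2 to 28.8 FPKM in knockdown and 16.2 to 18.3 FPKM in control, nearly all of it CD68, with the defining marker PTPRC at or near 0. The 6 melanocyte and 4 endothelial genes summed to no more than 2.12 and 2.98 FPKM in any library. Low values moved in shared steps within 2 sets of libraries, set A (knockdown replicates 1 and 3, control replicate 1) and set B (knockdown replicate 2, control replicate 2). The same ratio recurred in 22.2%, 25.1% and 20.1% of genes under 0.3 FPKM for the pairs of set A and in 16.98% for the pair of set B, against at most 3.96% in the other pairs. The part of these markers in the results was not tested. No label describes the sets, and differences within each are given for the genes and lists that the results turn on.

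None of the subunit genes passed the test. Their pooled differences were mostly small and positive, while by their median deviations 2 of the 3 knockdown libraries lay between the controls. Differences were taken on the log2(FPKM + 0.5) scale as knockdown minus control, and were above 0 for 70 of 81 (86.4%), against 51.3% of the 12196 genes tested. The median difference was 0.15, against 0.0070 over all tested genes, and the lowest was -0.39 (NDUFA7). Summed FPKM was 386368, 386096 and 420541 in knockdown replicates 1, 2 and 3, against 374215 and 391071 in control replicates 1 and 2. With equal FPKM sums, which move all genes of a library together, the median was 0.096 and 61 of 81 were above 0. With quantile normalization these were 0.13 and 65, and with equal medians 0.17 and 72. With limma and Benjamini-Hochberg adjustment over all tested genes, 0 of 81 had an adjusted p under 0.05, as had 0% of all genes, of which 1427 (11.7%) had an unadjusted p under 0.05. An unadjusted p under 0.05 was reached by 2 of 81 (2.47%), ATP5G2 among them, both positive, against 6.22% of all genes that were positive and 5.48% that were negative. All 3 knockdown values lay above both control values in 18 of 81 (22.2%; background 16.2%) and below both in 0 (background 15.8%), so the groups overlapped in 63, while 32% of all genes had groups that did not overlap.

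The positive median changed in size with each library left out. Knockdown replicate 3 and control replicate 1 held the extreme values of most of the 81 genes. Knockdown replicate 3 held the highest value of 62 of the 81 genes (76.5%, against 30% of all genes), and control replicate 1 the lowest value of 55 (67.9%, against 18.2% of all genes). The median deviation from a gene's mean over the 5 libraries was -0.075, -0.023 and 0.34 in knockdown replicates 1, 2 and 3, against -0.18 and 0.0024 in control replicates 1 and 2. Knockdown replicates 1 and 2 thus lay between the controls. In set A the difference was above 0 for 73 of 81 genes (background 48.6%), with a median of 0.30. In set B it was above 0 for 38 (background 50.1%), with a median of -0.032. Positive in set A and not in set B were 38 genes, positive in both were 35 (background 27.2%), and 5 were positive in neither. Without knockdown replicate 3 the count was 53 of 81 (background 49.3%), with a median of 0.063. Without control replicate 1 it was 56 with a median of 0.071. Leaving out knockdown replicate 1, knockdown replicate 2 or control replicate 2 gave 69, 74 and 73 genes above 0, with medians of 0.24, 0.24 and 0.25. Without knockdown replicate 3 and control replicate 1 together it was 36 with a median of -0.029, a setting chosen after the data had been seen. These 2 libraries had the highest and the lowest median deviation, so the choice itself fixed the direction of this change.

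**Figure D1:**
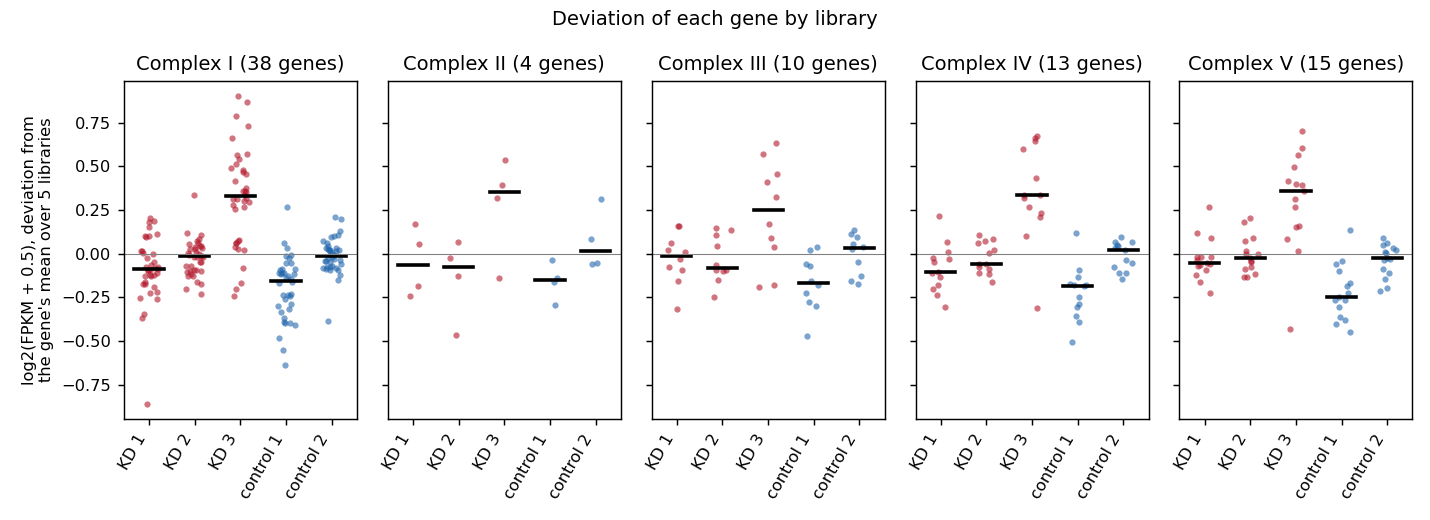
Deviation of each gene from its own mean over the 5 libraries, on the log2(FPKM + 0.5) scale (vertical axis), by library (horizontal axis; KD, knockdown) for complexes I to V. Each point is 1 gene and each black line the median; KD 3 has the highest median in every complex and control 1 the lowest.

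Median log2 differences were 0.15 for complex I, 0.074 for complex II, 0.11 for complex III, 0.15 for complex IV and 0.21 for complex V. Differences above 0 were counted in 34 of 38, 3 of 4, 8 of 10, 11 of 13 and 13 of 15 genes. With equal FPKM sums the medians were 0.094, 0.019, 0.059, 0.096 and 0.16 for complexes I to V. Whether the complexes differ from one another was not tested. Median differences in set A were 0.27, 0.27, 0.29, 0.30 and 0.40 for complexes I to V. In set B they were -0.0023, -0.092, -0.12, -0.079 and -0.021. Together the 81 genes held 2.54%, 2.54% and 2.93% of the summed FPKM in knockdown replicates 1, 2 and 3, against 2.36% and 2.57% in control replicates 1 and 2.

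**Figure D2:**
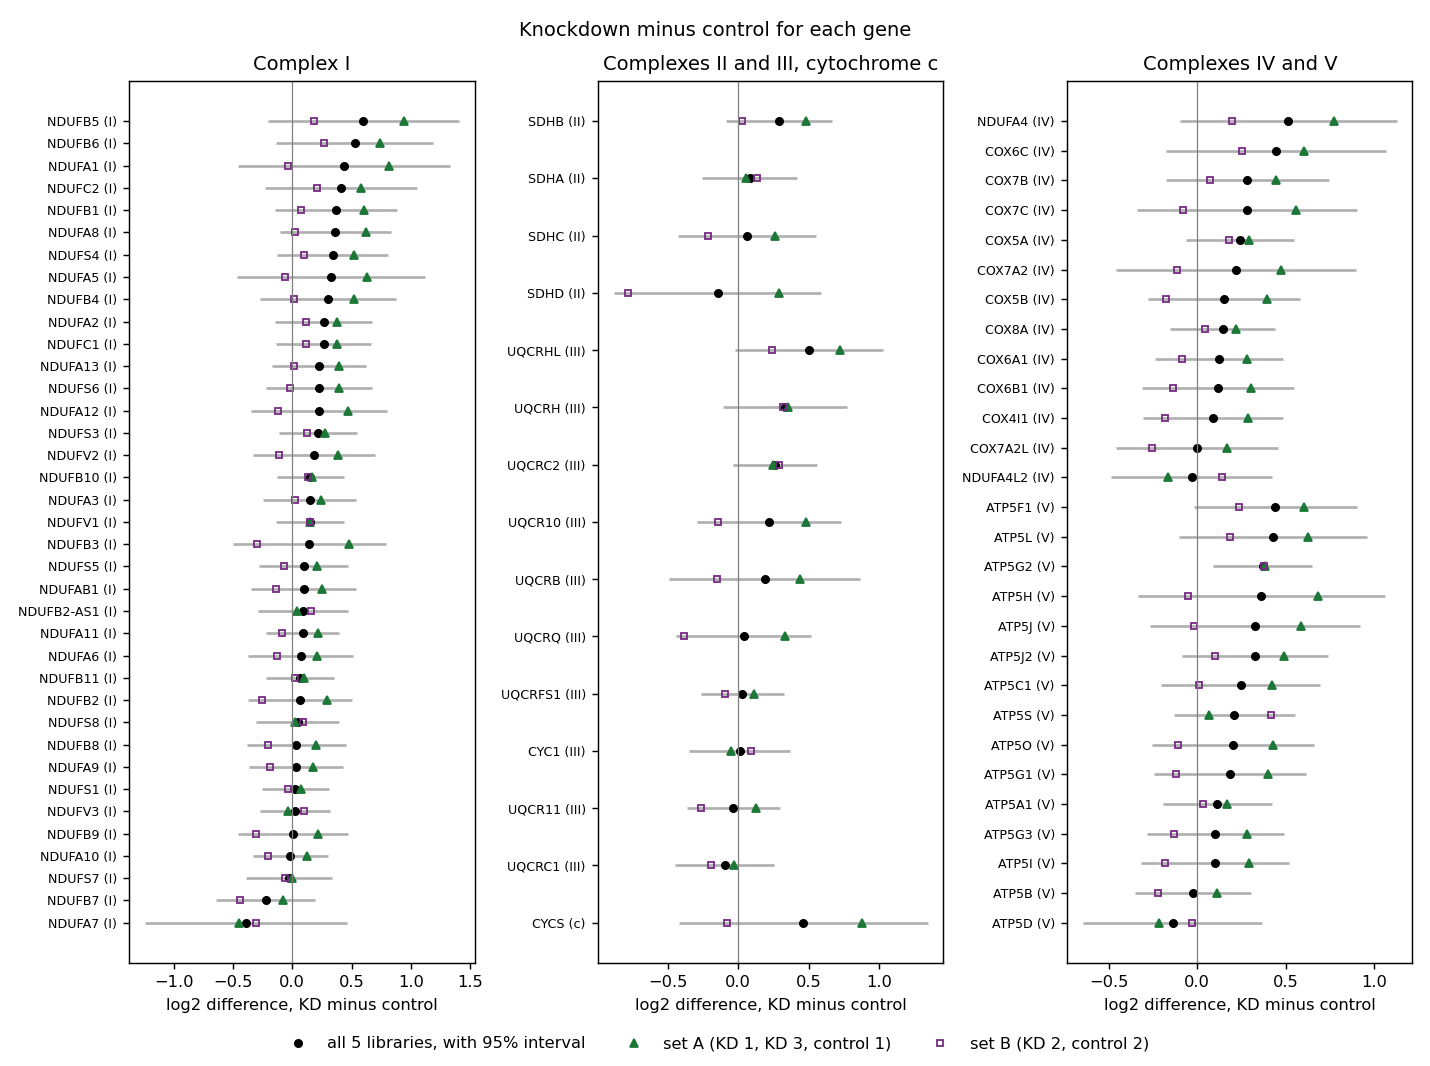
Log2 difference, knockdown minus control (horizontal axis), for 80 of the 81 genes (rows, grouped by complex; KD, knockdown). Circles are the fit of all 5 libraries with its 95% confidence interval, triangles the difference in set A and squares that in set B; the interval excludes 0 for ATP5G2, where all 3 symbols lie close together, while most other genes have the triangle right of the square.

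The levels of these genes, which FPKM makes comparable per length, were high for the cell. The mean over all libraries exceeded 100 FPKM for 37 of the 81 genes, and 54 stood above the 90th percentile of tested genes. Medians were 67.4 FPKM for complex I, 93.4 for complex II, 113 for complex III, 149.6 for complex IV and 109 for complex V. The highest was ATP5B, the catalytic beta subunit of ATP synthase, at 625, 535 and 594 FPKM in the knockdown libraries and 564 and 624 FPKM in the controls. Next came COX8A, a small subunit of cytochrome c oxidase, at 574, 550.1 and 589 FPKM in the knockdown libraries and 499 and 534 FPKM in the controls. These groups of values overlapped for ATP5B and did not for COX8A, where all knockdown values lay above both controls. In complex III the highest was CYC1, the heme protein that hands electrons to cytochrome c, at 365, 336 and 286 FPKM in the knockdown libraries and 336 and 316 FPKM in the controls. In complex I it was NDUFB9, an accessory subunit, at 288, 272 and 395 FPKM in the knockdown libraries and 289 and 336 FPKM in the controls. Neither gene separated the groups, with log2 differences of 0.0091 and 0.0085. Within complex I the means ran from 3.45 FPKM (NDUFC2) to 316 FPKM among the subunits.

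**Figure D3:**
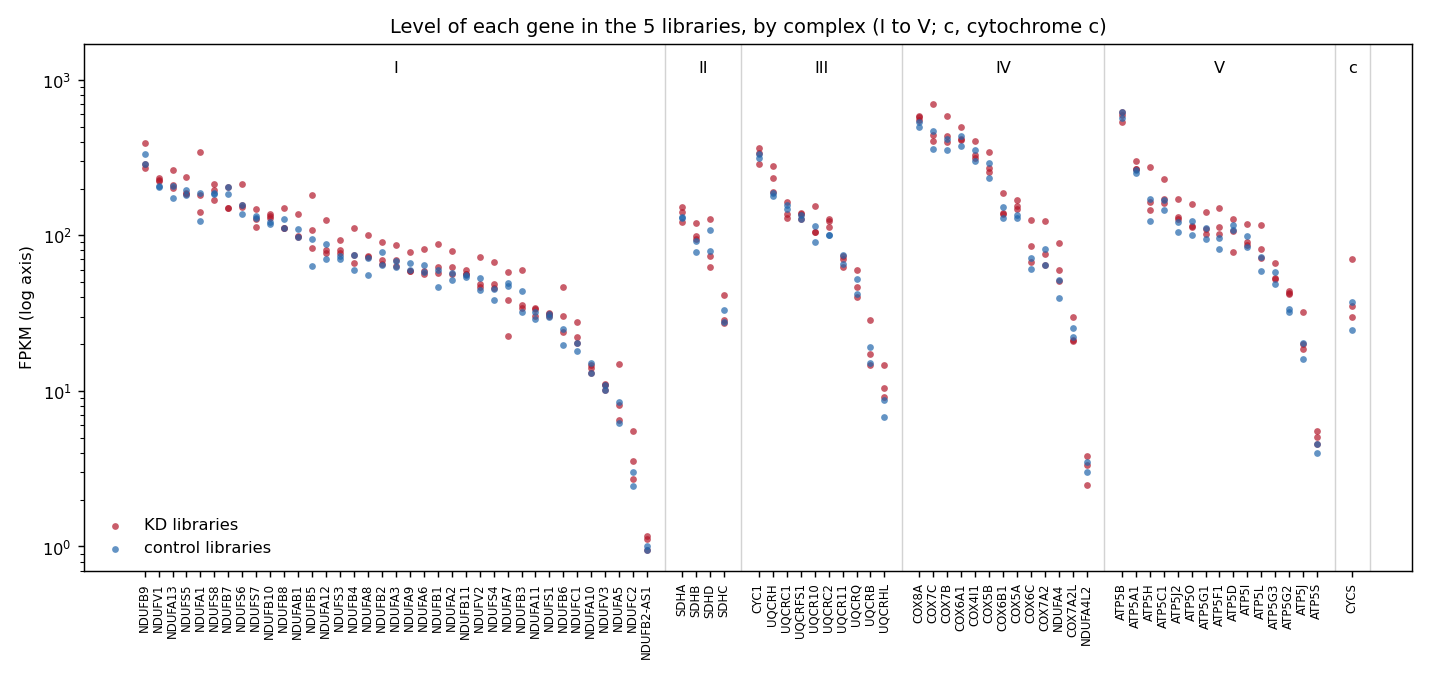
FPKM of 80 of the 81 genes (log axis) in the 3 knockdown (KD) and 2 control libraries, ordered by mean level within each complex; every point is 1 library. Most genes lie between 10 and 700 FPKM, and the points of a gene are close together compared with the range between genes.

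Most complex I genes described here followed the libraries more than the groups. NDUFB6, an accessory membrane subunit, stood at 23.8, 30.3 and 46.6 FPKM in knockdown replicates 1, 2 and 3, against 19.8 and 25.1 FPKM in control replicates 1 and 2, a log2 difference of 0.53 (SE 0.28, limma Benjamini-Hochberg adjusted p = 0.501), with 0.74 for set A and 0.27 for set B. Its groups overlapped, with control replicate 2 above knockdown replicate 1. NDUFA8, an accessory subunit of the intermembrane face, stood at 73.7, 72.5 and 101 FPKM in the knockdown libraries and 55.97 and 71.4 FPKM in the controls, and control replicate 2 came within 2 FPKM of the lowest knockdown value. That difference was 0.36, made up of 0.62 for set A and 0.023 for set B. NDUFA1, a small membrane-spanning subunit needed for assembly, and NDUFB5 were chosen for description after their values were seen. NDUFA1 had 141, 182 and 341 FPKM in the knockdown libraries and 124 and 187 FPKM in the controls, so knockdown replicate 3 alone lay far above the rest. NDUFB5 likewise had 83.5, 108 and 183 FPKM in the knockdown libraries and 64.01 and 94.5 FPKM in the controls. Their differences were 0.82 for set A and -0.040 for set B for NDUFA1, and 0.94 for set A and 0.19 for set B for NDUFB5. Negative differences were found for 4 members of complex I, NDUFA7, NDUFB7, NDUFS7 and NDUFA10.

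NDUFA7, an accessory subunit, was the lowest of these at 22.4, 38.2 and 58.1 FPKM in knockdown replicates 1, 2 and 3, against 49.7 and 47.3 FPKM in control replicates 1 and 2. Knockdown replicate 1 lay far below every other library, while knockdown replicate 3 lay above both controls. Its log2 difference of -0.39 (SE 0.36, limma Benjamini-Hochberg adjusted p = 0.676) therefore spans values on both sides of control. NDUFA7 overlaps RPS28, a ribosomal protein gene on the other strand, and reads of the 2 cannot be told apart unless counting used strand, which is not given in the sources used here. NDUFB7, an accessory subunit, was at 204, 151 and 149 FPKM in the knockdown libraries and 185 and 205 FPKM in the controls, with a difference of -0.23, and NDUFS7, a core subunit that carries an iron-sulfur cluster, was at 148, 128 and 113 FPKM in the knockdown libraries and 129 and 134 FPKM in the controls, with -0.029. In both genes knockdown replicates 2 and 3 lay below both controls and knockdown replicate 1 did not. NDUFB2-AS1, the antisense row and the lowest of all, was between 0.952 and 1.16 FPKM, with a difference of 0.089.

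Complex I has core subunits, which carry the flavin and iron-sulfur clusters and have counterparts in bacteria, and accessory subunits around them. Of 7 nuclear core subunits 6 were above 0 and 3 (42.9%) had all knockdown values above both controls, at a median log2 difference of 0.15. Of 30 accessory subunits 27 were above 0 and 4 (13.3%) were separated in this way, at a median of 0.15, while 16.2% of all tested genes were so separated. Knockdown replicate 3 was the highest library for 3 of the 7 core and 26 of the 30 accessory genes, and the median GC content was 54.3% and 49.9%. The separated core genes included NDUFV1, which binds NADH, and NDUFS3, both chosen after their values were seen. NDUFV1 had 235, 227 and 223 FPKM in the knockdown libraries and 206 and 205 FPKM in the controls, so its highest value was in knockdown replicate 1, and its log2 difference of 0.15 (SE 0.12, limma Benjamini-Hochberg adjusted p = 0.6402) was 0.15 for set A and 0.15 for set B. NDUFS3 had 77.2, 80.2 and 93.9 FPKM in the knockdown libraries and 70.1 and 73.6 FPKM in the controls, a difference of 0.22, with 0.28 for set A and 0.12 for set B. Of the remaining core subunits, NDUFS1, which receives electrons from the NADH site, stayed within 29.8 to 31.8 FPKM over all 5 libraries, and NDUFS8 and NDUFV2 had differences of 0.047 and 0.18. Separated accessory genes other than NDUFA8 were NDUFS4 at 0.34, NDUFB10 at 0.15 and NDUFB11 at 0.065, with set B differences of 0.099, 0.13 and 0.021.

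All 4 subunits of complex II, which also works in the tricarboxylic acid cycle, were present. SDHA, the flavoprotein that oxidises succinate, stood at 152, 142 and 122 FPKM in knockdown replicates 1, 2 and 3, against 131 and 129 FPKM in control replicates 1 and 2, a log2 difference of 0.083 (SE 0.14, limma Benjamini-Hochberg adjusted p = 0.831). The SDHA pseudogenes SDHAP1, SDHAP2 and SDHAP3 have rows of their own and can share reads with it. SDHB, the iron-sulfur subunit, stood at 99.5, 94.2 and 119 FPKM in the knockdown libraries and 77.8 and 92.3 FPKM in the controls. Every knockdown value of SDHB was above both controls, by less than 2 FPKM at the closest, and its difference of 0.29 (SE 0.16, limma Benjamini-Hochberg adjusted p = 0.516) was 0.48 for set A and 0.029 for set B. SDHC, a membrane anchor, stood at 27.5, 28.5 and 41.2 FPKM in the knockdown libraries and 27.9 and 33.1 FPKM in the controls, and the groups overlapped, with a difference of 0.064. SDHD, the other anchor, stood at 73.4, 62.9 and 127 FPKM in the knockdown libraries and 79.1 and 108 FPKM in the controls. Knockdown replicate 3 of SDHD was the highest library and knockdown replicate 2 the lowest, so its difference of -0.15 was 0.29 for set A and -0.78 for set B.

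In complex III, UQCRC2 kept a small positive difference in both sets. It encodes a core protein of the matrix side, at ENSG00000140740.10, chromosome 16, 21952660 to 21983660, plus strand in GENCODE release 29 (GRCh38), and stood at 113, 123 and 127 FPKM in knockdown replicates 1, 2 and 3, against 101 and 101 FPKM in control replicates 1 and 2. All knockdown values lay above both controls, and these were less than 1 FPKM apart. Its log2 difference was 0.26 (SE 0.12, limma Benjamini-Hochberg adjusted p = 0.471), and 0.25 for set A and 0.29 for set B. UQCRH, the acidic hinge protein next to the cytochrome of this complex, stood at 189, 233 and 279.9 FPKM in the knockdown libraries and 180.2 and 187 FPKM in the controls, with a difference of 0.33 (SE 0.18, limma Benjamini-Hochberg adjusted p = 0.522), and 0.35 for set A and 0.32 for set B. UQCRHL, an intronless copy of UQCRH, stood at 9.13, 10.5 and 14.6 FPKM in the knockdown libraries and 6.81 and 8.79 FPKM in the controls, with a difference of 0.50 (SE 0.22, limma Benjamini-Hochberg adjusted p = 0.444), and 0.72 for set A and 0.24 for set B. Reads may be divided between UQCRH and its copy. UQCRC1, the partner of UQCRC2, was at 164, 138 and 129.8 FPKM in the knockdown libraries and 149 and 157 FPKM in the controls, with a difference of -0.096 and overlapping groups. The remaining subunits of complex III, UQCR10, UQCRB, UQCR11, UQCRFS1 and UQCRQ, had differences of -0.035 to 0.22. CYCS, cytochrome c itself, stood at 29.9, 35.4 and 70.3 FPKM in knockdown replicates 1, 2 and 3, against 24.7 and 37.4 FPKM in control replicates 1 and 2. Knockdown replicate 3 lay far above the next library, and the difference of 0.46 (SE 0.37, limma Benjamini-Hochberg adjusted p = 0.6402) was 0.88 for set A and -0.078 for set B. CYCS has 40 annotated pseudogenes named after it, which can share its reads.

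**Figure D4:**
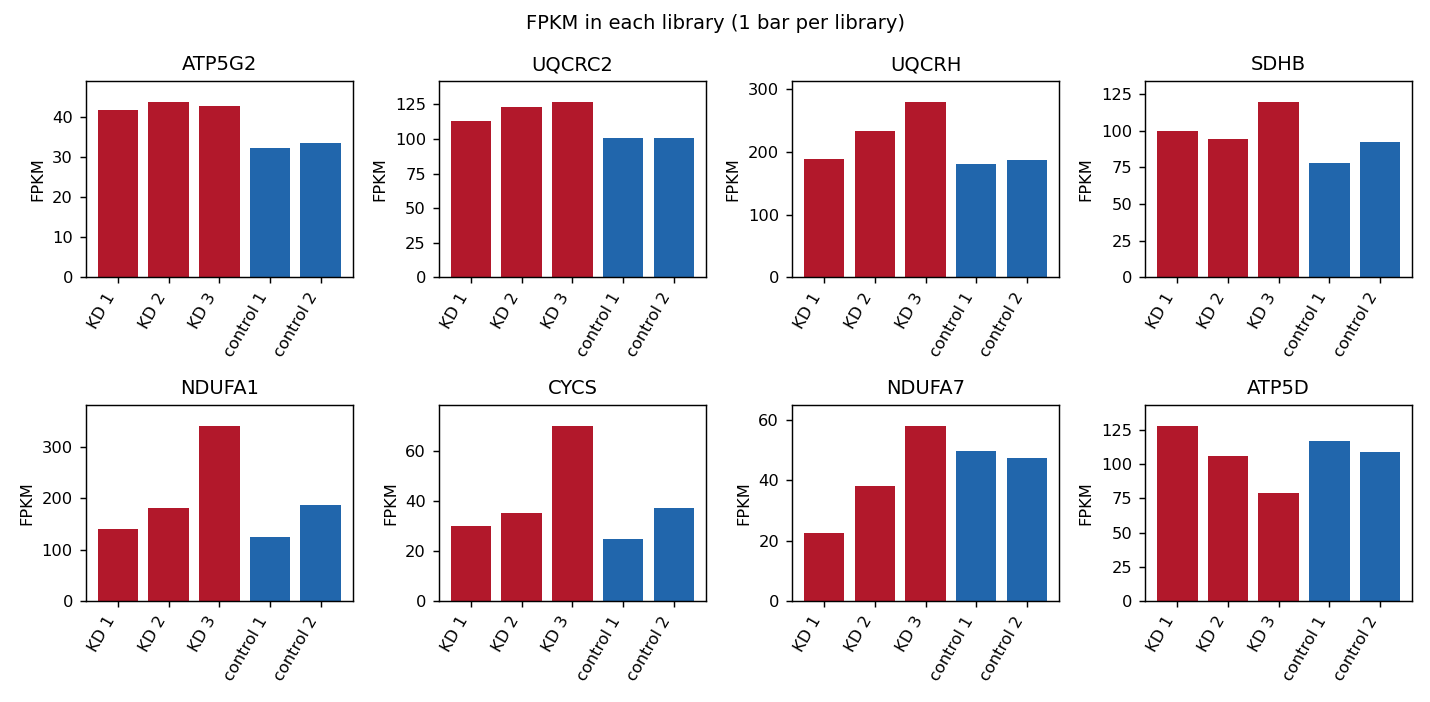
FPKM (vertical axis, from 0) of 8 genes in each knockdown (KD, red) and control (blue) library; every bar is 1 library. ATP5G2, UQCRC2, UQCRH and SDHB have all 3 KD bars above both controls, NDUFA1 and CYCS have 1 high bar in KD 3, NDUFA7 is low in KD 1, and ATP5D is lowest in KD 3.

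Complex IV has alternative isoforms for several subunits, and the ubiquitous forms stood at far higher FPKM than the tissue-specific ones. A value of 0 in this table may be a failed estimate, since ATP5E, a subunit that every cell uses, was also listed under 1 FPKM in all 5 libraries. COX4I1 stood at 328, 313 and 407 FPKM in the knockdown libraries and 299.6 and 355 FPKM in the controls, while COX4I2, the form of lung and hypoxic cells, was listed at 0 in every library. COX6A1 stood at 416, 409 and 499.9 FPKM in the knockdown libraries and 376 and 434 FPKM in the controls, and the muscle form COX6A2 was listed at 0. COX7B stood at 398, 438 and 582 FPKM in the knockdown libraries and 353 and 416 FPKM in the controls, with COX7B2 listed at 0. COX8C, the counterpart of COX8A, was also listed at 0. COX7A2 stood at 64.3, 75.4 and 124 FPKM in the knockdown libraries and 64.2 and 81.8 FPKM in the controls, whereas COX7A1, the heart and muscle form, was at 0.5201, 0.525 and 0.119 FPKM in the knockdown libraries and 0.595 and 0.488 FPKM in the controls. COX6B1 had 138, 139 and 187 FPKM in the knockdown libraries and 130.2 and 153 FPKM in the controls. COX6B2, its testis form, was below the 1 FPKM limit at 0.713, 0.237 and 0.376 FPKM in the knockdown libraries and 1.02 and 1.21 FPKM in the controls, and all of its knockdown values lay under both controls. COX7A2L, which links complexes III and IV into supercomplexes, stood at 20.8, 21.1 and 29.996 FPKM in the knockdown libraries and 22.1 and 25.3 FPKM in the controls, a difference of -0.0025. None of the forms above 1 FPKM separated the groups except COX8A. The log2 differences of COX4I1, COX6A1, COX6B1, COX7A2 and COX7B were 0.089, 0.12, 0.12, 0.22 and 0.28, and that of COX8A was 0.15.

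NDUFA4, first described with complex I and now placed in complex IV, had the smallest p of this complex. It stood at 51.1, 59.5 and 89.9 FPKM in knockdown replicates 1, 2 and 3, against 39.4 and 51.9 FPKM in control replicates 1 and 2, where control replicate 2 lay above knockdown replicate 1. The log2 difference was 0.52 (SE 0.26, limma Benjamini-Hochberg adjusted p = 0.481), and 0.77 for set A and 0.19 for set B. Its hypoxia-induced paralog NDUFA4L2 was at 3.79, 3.36 and 2.48 FPKM in the knockdown libraries and 3.51 and 3.01 FPKM in the controls, with a difference of -0.032. COX5A, a subunit of the matrix side, stood at 147, 154 and 169 FPKM in the knockdown libraries and 129 and 135 FPKM in the controls, with all knockdown values above both controls. That difference was 0.24 (SE 0.13, limma Benjamini-Hochberg adjusted p = 0.501), and 0.29 for set A and 0.18 for set B. COX6C stood at 67.4, 85.7 and 126 FPKM in the knockdown libraries and 60.6 and 71.97 FPKM in the controls, with overlapping groups and a difference of 0.44, with 0.60 for set A and 0.25 for set B. COX7C and COX5B, also small subunits encoded in the nucleus and chosen after their values were seen, followed the libraries. COX7C had 402, 444 and 699 FPKM in the knockdown libraries and 360.4 and 469 FPKM in the controls, with 0.56 for set A and -0.079 for set B. COX5B had 273, 257 and 346 FPKM in the knockdown libraries and 234 and 290.3 FPKM in the controls, with 0.39 for set A and -0.18 for set B. In both genes control replicate 2 lay above knockdown replicates 1 and 2.

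In complex V, ATP5G2 differed by the same amount in both sets. ATP5G1, ATP5G2 and ATP5G3 encode the same mature subunit c, which forms the rotating ring of the membrane part. ATP5G2 (current symbol ATP5MC2, ENSG00000135390.18, chromosome 12, 53632726 to 53677408, minus strand) stood at 41.8, 43.7 and 42.8 FPKM in knockdown replicates 1, 2 and 3, against 32.4 and 33.6 FPKM in control replicates 1 and 2. Its knockdown values all lay above both controls and within 2 FPKM of each other, and the means were 42.8 ± 0.956 FPKM (SD, n = 3) in knockdown and 32.96 ± 0.8297 FPKM (SD, n = 2) in control (ratio 1.298). On the log2 scale this is 0.37 (SE 0.12, limma Benjamini-Hochberg adjusted p = 0.389), with an unadjusted p of 0.0168, and it was 0.38 for set A and 0.38 for set B. With 10 ways to split 5 libraries into 3 and 2, the smallest p of an exact permutation test is 0.1. ATP5G1 stood at 109, 102 and 142 FPKM in the knockdown libraries and 94.5 and 111 FPKM in the controls and ATP5G3 at 52.9, 52.7 and 66.9 FPKM in the knockdown libraries and 48.8 and 57.9 FPKM in the controls, both with overlapping groups, and their differences were 0.19 and 0.10. Those of set B were -0.12 and -0.13. Whether ATP5G2 differs from its sister genes between the groups was not tested.

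Among the other complex V genes, ATP5F1, the b subunit of the stalk that holds the catalytic head, stood at 102, 113 and 150.3 FPKM in knockdown replicates 1, 2 and 3, against 81.5 and 95.997 FPKM in control replicates 1 and 2. Its knockdown values were above both controls, with a log2 difference of 0.44 (SE 0.19, limma Benjamini-Hochberg adjusted p = 0.443), and 0.60 for set A and 0.24 for set B. WDR77 overlaps it on the other strand. ATP5L, the g subunit of the membrane part, stood at 71.8, 82.1 and 116 FPKM in the knockdown libraries and 59.003 and 72.2 FPKM in the controls, where control replicate 2 lay above knockdown replicate 1, and its difference was 0.43, with 0.63 for set A and 0.18 for set B. ATP5D, the delta subunit of the rotor, was chosen after its values were seen. It stood at 128, 106 and 78.5 FPKM in the knockdown libraries and 117 and 109 FPKM in the controls, highest and lowest within the knockdown group, a difference of -0.14. ATP5S, the lowest row of this complex, stood at 4.59, 5.51 and 5.03 FPKM in the knockdown libraries and 4.58 and 4.005 FPKM in the controls, a difference of 0.21. ATPIF1, the inhibitor that keeps the enzyme from running backwards and no member by the prefixes, stood at 61.3, 68.7 and 72.4 FPKM in the knockdown libraries and 53.001 and 54.4 FPKM in the controls. All of its knockdown values were above both controls, with a log2 difference of 0.32 (SE 0.13, limma Benjamini-Hochberg adjusted p = 0.419) and an unadjusted p of 0.0448, and 0.33 for set A and 0.33 for set B. ATP5E, the epsilon subunit, was below the limit at 0.722, 0.339 and 0.0346 FPKM in the knockdown libraries and 0.477 and 0.479 FPKM in the controls.

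By place in the ATP synthase, the peripheral stalk (ATP5F1, ATP5H, ATP5J and ATP5O), which keeps the head from turning, had 4 of 4 genes above 0 at a median log2 difference of 0.34. The head and rotor (ATP5A1, ATP5B, ATP5C1 and ATP5D), where ATP is made, had 2 of 4 above 0 at a median of 0.044. Within set A the medians were 0.59 for the stalk and 0.14 for the head and rotor, and within set B -0.037 and -0.012. ATP5H, chosen after its values were seen, had 145, 165 and 276 FPKM in the knockdown libraries and 124 and 171 FPKM in the controls, with knockdown replicate 3 far above the rest and knockdown replicates 1 and 2 between the controls. ATP5A1, the alpha subunit of the head, had 266, 269 and 299.8 FPKM in the knockdown libraries and 251 and 262 FPKM in the controls, where the groups did not overlap and the difference was 0.11. The other membrane subunits, ATP5I, ATP5J2 and ATP5L, had differences of 0.099 to 0.43, and ATP5J2 alone of these separated the groups, at 128, 131 and 172 FPKM in the knockdown libraries and 105 and 122 FPKM in the controls. Whether these places differ was not tested.

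Promoters of respiratory genes are known for sites of NRF1, of ETS family factors such as GABPA, and of YY1, which links the complexes at the level of transcription. Promoter windows of 250 bases before to 50 after the start were taken from RefSeq (GRCh38.p14), and 64 of the 81 genes had an entry. On either strand the letters GCGCNTGCG (NRF1) occurred in 21 of 64 (32.8%), against 8.05% of 27305 windows in all. CCGGAAG (ETS) occurred in 19 (29.7%, against 10.7%) and AAGATGGCG (YY1) in 8 (12.5%, against 1.85%). The windows in all were not limited to the tested genes and include genes not expressed here, so the 2 shares come from unlike sets. Median log2 differences of genes with and without a match were 0.12 and 0.18 for NRF1, 0.15 and 0.18 for ETS, and 0.050 and 0.17 for YY1, and whether these differ was not tested. A match is a description of the letters and not a bound site. By complex, NRF1 letters were found in 9 of 33 windows of complex I, 2 of 3 of complex II, 4 of 7 of complex III, 1 of 10 of complex IV and 5 of 10 of complex V. ETS letters were found in 5 of 33, 2 of 3, 3 of 7, 5 of 10 and 4 of 10. Shown are ATP5G2 (chr12:53676034-53676333, minus strand), with an NRF1 match, and UQCRC2 (chr16:21953111-21953410, plus strand), with none of the motifs. Their log2 differences in set A and set B were 0.38 and 0.38 for ATP5G2, and 0.25 and 0.29 for UQCRC2. Added are 3 windows that held more than 1 motif. They are SDHB (chr1:17053983-17054282, minus strand), with ETS then YY1, SDHD (chr11:112086623-112086922, plus strand), with NRF1 then ETS, and UQCRC1 (chr3:48609597-48609896, minus strand), with NRF1 then YY1. All 5 were chosen after their values were seen. Capitals mark the matches, of which none overlapped a match of another motif, and each line runs 5′ to 3′ on the gene's strand.
ATP5G2: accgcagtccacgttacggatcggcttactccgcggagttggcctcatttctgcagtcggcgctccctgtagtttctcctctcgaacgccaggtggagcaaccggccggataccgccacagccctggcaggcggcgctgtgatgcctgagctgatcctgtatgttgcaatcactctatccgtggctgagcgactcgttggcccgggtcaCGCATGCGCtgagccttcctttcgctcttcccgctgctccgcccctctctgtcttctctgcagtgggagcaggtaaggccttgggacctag
UQCRC2: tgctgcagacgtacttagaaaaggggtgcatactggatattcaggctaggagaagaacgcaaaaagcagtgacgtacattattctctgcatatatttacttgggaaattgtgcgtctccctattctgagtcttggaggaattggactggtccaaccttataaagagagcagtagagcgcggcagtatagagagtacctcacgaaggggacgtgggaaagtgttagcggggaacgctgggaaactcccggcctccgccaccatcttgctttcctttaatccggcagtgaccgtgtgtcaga
SDHB: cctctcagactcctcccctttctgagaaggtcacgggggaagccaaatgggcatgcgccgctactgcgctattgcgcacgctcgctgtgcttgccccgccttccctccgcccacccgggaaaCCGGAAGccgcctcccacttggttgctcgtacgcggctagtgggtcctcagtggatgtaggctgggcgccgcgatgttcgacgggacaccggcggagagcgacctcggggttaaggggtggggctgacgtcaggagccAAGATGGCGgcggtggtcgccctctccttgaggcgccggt
SDHD: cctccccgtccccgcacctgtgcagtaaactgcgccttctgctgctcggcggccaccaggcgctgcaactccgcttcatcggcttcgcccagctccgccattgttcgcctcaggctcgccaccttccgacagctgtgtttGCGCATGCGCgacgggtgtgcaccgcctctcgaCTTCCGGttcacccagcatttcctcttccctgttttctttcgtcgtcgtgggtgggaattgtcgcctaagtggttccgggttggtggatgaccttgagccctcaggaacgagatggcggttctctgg
UQCRC1: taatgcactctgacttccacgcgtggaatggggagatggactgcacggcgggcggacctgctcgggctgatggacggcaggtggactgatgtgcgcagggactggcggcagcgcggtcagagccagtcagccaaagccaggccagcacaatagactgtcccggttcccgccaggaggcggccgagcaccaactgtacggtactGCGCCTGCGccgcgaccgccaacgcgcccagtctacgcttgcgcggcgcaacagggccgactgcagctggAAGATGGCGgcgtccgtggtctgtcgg

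In the windows shown, SDHB and SDHD both carry the ETS letters. SDHB was above both controls in every knockdown library, at the closest with 94.2 FPKM against 92.3 FPKM in control replicate 2. SDHD spread from 62.9 to 127 FPKM within the knockdown group, against 79.1 to 108 FPKM in control. Differences in set A and set B were 0.48 and 0.029 for SDHB, and 0.29 and -0.78 for SDHD. UQCRC1 and UQCRC2, partners in the core of complex III, had differences of -0.096 and 0.26, with motif matches in the window of UQCRC1 and none in that of UQCRC2. Whether a match goes with a difference was not tested, and these pairs, chosen after their values were seen, cannot show it.

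Within a library the deviations of the 81 genes moved with the GC content of their transcripts. Across the 81 genes, Spearman's rho between deviation and GC content was 0.654, -0.035 and -0.6902 in knockdown replicates 1, 2 and 3, against 0.593 and 0.132 in control replicates 1 and 2. Over the 11493 tested genes with an annotation it was 0.621, 0.010 and -0.562 in knockdown, against 0.192 and 0.119 in control. These are descriptions across genes that share each library's depth and composition, and the 5 deviations of a gene add up to 0. In the 27 genes of lowest GC content (35.04 to 46.9%), the median deviation in knockdown replicate 3 was 0.57 and the median log2 difference 0.29. In the 27 of highest GC content (53.9 to 68.7%) they were 0.088 and 0.089. Knockdown replicate 3 held the highest value in 26 of the first 27 and 13 of the last 27. NDUFB5 and CYCS, at 40.1% and 43.3% GC, belong to the first group, and NDUFS7 and ATP5D, at 66.8% and 68.7%, to the last. ATP5G2 has 56.6%.

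Every library was also corrected for GC content and transcript length by a smooth fit over all annotated genes, which lowered the relation to GC content among the 81 genes without removing it. After correction Spearman's rho was 0.23, -0.064 and -0.31 in knockdown replicates 1, 2 and 3, against 0.45 and -0.044 in control replicates 1 and 2. The median deviation of the 81 genes in knockdown replicate 3 was 0.28 after correction, against 0.34 before it, and that replicate still held the highest value of 65 genes. Their transcripts are short, with a median of 651 nucleotides, against 1198.5 over all tested genes, at a median GC content of 49.97% and 50.1%. The corrected log2 difference of ATP5G2 was 0.36, and the median of the 81 was 0.13. The part that library composition has in these differences was not tested beyond these values.

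**Figure D5:**
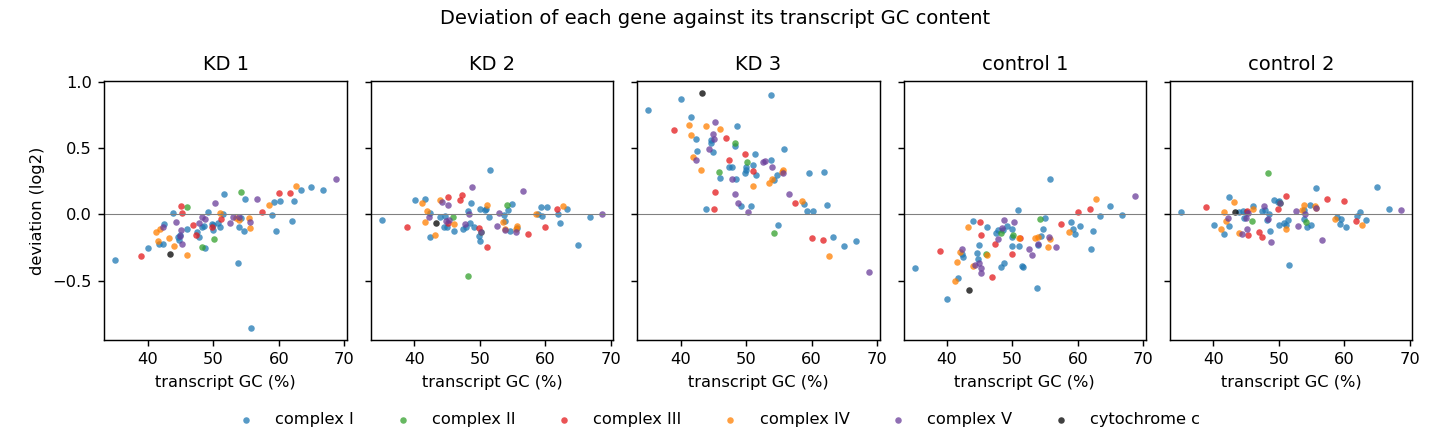
Deviation of each of the 81 genes from its mean over the 5 libraries (log2 scale, vertical axis) against the median GC content of its annotated transcripts (percent, horizontal axis), with 1 panel per library (KD, knockdown) and colours for the complexes. Points fall from left to right in KD 3 and climb in KD 1 and control 1, and they are close to level in KD 2 and control 2.

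Assembly factors, which build the complexes and are not part of them, gave no call either. None of the 96 tested genes in 9 related lists passed over all genes in limma, with adjusted p of 0.387 or more, and 3 (3.13%, against 11.7% of all tested genes) had an unadjusted p under 0.05, all positive. These were UQCC3, COX15 and PDSS2. Log2 differences were above 0 for 12 of 14 (median 0.10) complex I factors, 4 of 4 (median 0.19) complex II factors and 5 of 6 (median 0.21) complex III factors. For complex IV factors the count was 10 of 20 (median 0.036) and for complex V factors 2 of 4 (median 0.027). Within set A and set B the counts were 11 and 8 of 14 for complex I factors, 4 and 2 of 4 for complex II, 6 and 3 of 6 for complex III, 15 and 9 of 20 for complex IV, and 2 and 0 of 4 for complex V. The complex I factors of smallest p were NDUFAF3 (-0.40), NDUFAF7 (0.24) and NDUFAF8 (-0.24). NDUFAF3 had 21.7, 16.2 and 14.02 FPKM in the knockdown libraries and 22.04 and 23.3 FPKM in the controls, so every knockdown value was lower than both controls, opposite in sign to the median of the subunits. Those of complex II were SDHAF1 (0.20), SDHAF4 (0.21) and SDHAF3 (0.17). UQCC3, which stabilises cytochrome b during complex III assembly, had 16.8, 15.3 and 13.2 FPKM in the knockdown libraries and 11.8 and 11.4 FPKM in the controls, a log2 difference of 0.36 (SE 0.14, limma Benjamini-Hochberg adjusted p = 0.414), followed by UQCC1 (0.24) and BCS1L (0.17). COX15, which makes the heme A of complex IV, had 9.05, 9.58 and 9.598 FPKM in the knockdown libraries and 7.62 and 7.52 FPKM in the controls, a difference of 0.30 (SE 0.12, limma Benjamini-Hochberg adjusted p = 0.418), followed by COX20 (0.31) and COX11 (0.25). In complex V assembly TMEM70 had 12.9, 13.6 and 17.5 FPKM in the knockdown libraries and 19.3 and 17.5 FPKM in the controls, a difference of -0.33, beside ATPAF1 (0.24) and ATPAF2 (-0.12).

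Lists of genes that supply or regulate the respiratory chain differed in their counts. Of genes for coenzyme Q synthesis, 9 of 11 (median 0.16) had differences above 0. PDSS2, a subunit of the enzyme that makes the isoprenoid tail of coenzyme Q, had 4.07, 4.27 and 4.58 FPKM in the knockdown libraries and 3.004 and 3.09 FPKM in the controls, with every knockdown value above both controls, and its log2 difference was 0.44 (SE 0.13, limma Benjamini-Hochberg adjusted p = 0.387), and 0.46 for set A and 0.41 for set B. COQ9 and COQ2 followed, at 0.22 and 0.22. In the list for mitochondrial DNA expression 7 of 14 (median 0.0082) were above 0, and MTERF2 (0.33), MTERF4 (0.23) and POLG (-0.34) had the smallest p. Among nuclear regulators of mitochondrial biogenesis the count was 5 of 9 (median 0.0090), with ESRRA at -0.12, YY1 at -0.10 and PPRC1 at -0.18. The tricarboxylic acid cycle had 9 of 14 (median 0.042). Its members DLD and CS were at 0.28 and 0.22. The regulators ran differently in the sets, with 1 of 9 above 0 in set A (median -0.14) and 6 of 9 in set B (median 0.13). For coenzyme Q synthesis the counts were 9 and 6 of 11, for mitochondrial DNA expression 5 and 7 of 14, and for the tricarboxylic acid cycle 8 and 8 of 14.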

How the data were processed

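RNA of 5 HaCaT libraries was analysed from 1 table of FPKM values that the authors deposited, 1 column for each. Alignment and quantification used HISAT2 2.0.1 and StringTie 2.0.6, per the submitters' processing notes, which name the builds GRCh38 and mm9 without a role; the annotation and the use of strand are not stated. FPKM holds no read totals, so the absolute depth is unknown and no count test was run. Values were analysed as log2(FPKM + 0.5) for the 12196 symbols whose mean was 1 FPKM or more, with limma 3.58.1 in R 4.3.3 (lmFit, eBayes with trend), comparing knockdown with control and no covariates. P-values were two-sided and Benjamini-Hochberg adjusted over all tested genes, at a threshold of 0.05. The fit was also run on simulated data with independent noise, which held no sets of libraries and no relation to GC content. That run cannot show how the fit behaves where libraries differ in these ways. Differences on this scale understate changes of low genes. Positions, transcript GC content and length (medians over annotated transcripts) came from GENCODE release 29 by symbol or older symbol, for 94.2% of tested genes and all 81 members. Of the 81 genes, 45 have annotated pseudogenes named after them and 51 overlap another annotated gene, so their values can hold shared reads.

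Members, lists and tests were chosen with earlier results of these data known. The genes described were, in each complex, the 3 of smallest p, the highest and the lowest, all isoform pairs of complex IV, SDHA to SDHD, CYC1, CYCS and ATPIF1, with the 3 of smallest p in each list; NDUFA1, NDUFA7, NDUFB5, NDUFB7, NDUFS7, NDUFC2, UQCRC1, ATP5D, ATP5G1, ATP5G3 and the other genes outside this rule were chosen after seeing their values. Single values of 1 of the 81 genes and of 1 gene in the lists are not reported here; both remain in the counts and medians. Other pseudocounts, filters, scalings and variance models were tried, as were weights per library, a block for the replicate number, a term for the sets, a loess fit (span 0.3) to GC content and length, and each library left out.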

Additional observations from a re-analysis of the deposited data

How the results depend on the processing

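Read depth is unknown for these values, and 2 control libraries limit every estimate. No gene passed with a Benjamini-Hochberg adjusted p under 0.05 in the analysis as described, and 1 gene passed with a pseudocount of 1, with no intensity trend, with a robust variance and at an adjusted p under 0.1, none of them among the 81. With limma and weights for each library, 1428 of the 12196 tested genes passed. They included 2 of the 81 (ATP5G2 among them, at a Benjamini-Hochberg adjusted p of 0.0384) and 4 of the 96 genes of the related lists. Both are smaller shares than that of all tested genes. These weights were 0.530, 3.98 and 0.257 for knockdown replicates 1, 2 and 3, against 1.36 for each control. Leaving out 1 library at a time gave 0 to 9 genes, the 9 without control replicate 1, with none of the 81 among them; a lone control is then assumed to vary like the knockdown libraries. Without knockdown replicate 3 and control replicate 1 together, complexes IV and V had medians of -0.074 and -0.029, and 36 of the 81 were above 0. The choice of these libraries fixed the direction of that change in advance. Genes with an unadjusted p under 0.05 numbered 1427 in the analysis as described, 862 at a mean of 5 FPKM or more, 4285 with library weights, 828 with a term for the sets, and 564 to 2092 with 1 library left out (2092, 740 and 1772 without knockdown replicates 1, 2 and 3, against 690 and 564 without control replicates 1 and 2). Of the 81 genes, 2 had such a p in the analysis as described, 13 with library weights and 1 with the set term. After correction for GC content and length it was 4, against 1988 of the 11493 annotated genes. Without knockdown replicates 1, 2 and 3 the counts were 12, 1 and 4. In each setting for which a count of the 81 is given, their share was smaller than that of all genes tested. Their share was larger than that of all genes without control replicate 2, a fit that rests on a lone control.

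The median difference of the 81 genes ranged from 0.063 to 0.25 and the count above 0 from 53 to 74 with 1 library left out. Within set A complex III had a median of 0.29. Within set B complexes III, IV and V had medians of -0.12, -0.079 and -0.021, and 38 of the 81 were above 0. The shared numbers of the replicates are not described as a pairing, and with 2 controls, whose deviations mirror each other, a correlation of deviations cannot show one. With a replicate block, 53 of the 81 were above 0, at a median of 0.063, 0 genes passed and 977 had an unadjusted p under 0.05. Replicate number 3 has no control, so the block gives the same differences as leaving out knockdown replicate 3 and is no separate check. Differences of opposite sign were NDUFB9 -0.16, SDHC -0.12, NDUFA4L2 0.12, COX4I1 -0.027, COX6B1 -0.027, COX7A2 -0.057 and PPRC1 0.071.

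Among the 30 members named by rule, 543 of 597 refits kept the sign of the difference, and 12 genes changed it at least once. Among 29 other named genes 568 of 575 kept it. These counts include refits with another filter or variance model, which cannot change a sign. They also count the replicate block, whose differences equal those without knockdown replicate 3. Changed signs were NDUFB9 -0.046 and CYC1 -0.046 with equal FPKM sums, NDUFB9 -0.044, CYC1 -0.041, COX6A1 -0.012 and COX7A2L 0.0069 with quantile normalization, COX7A2L 0.015 with equal medians and NDUFB9 -0.16, SDHC -0.070, NDUFA4L2 0.039, COX4I1 -0.032 and PPRC1 0.074 with library weights. With the set term it was NDUFB9 -0.0057, and after correction for GC content and length NDUFB9 -0.057, SDHC -0.0034 and NDUFA4L2 0.031. Within set A these were SDHD 0.29, CYC1 -0.055, ATP5B 0.11 and COX7A2L 0.17, and within set B CYCS -0.078, NDUFB9 -0.31, SDHC -0.21, NDUFA4L2 0.14, COX4I1 -0.18, COX6A1 -0.088, COX6B1 -0.14, COX7A2 -0.12, SDHAF4 -0.16, ATPAF1 -0.014 and PPRC1 0.44. Over the fits with 1 library left out, genes that changed sign were CYC1 (-0.069 to 0.11), COX7A2L (-0.17 to 0.091), SDHD (-0.44 to 0.081), ATP5B (-0.098 to 0.048), NDUFB9 (-0.16 to 0.12), SDHC (-0.12 to 0.19), NDUFA4L2 (-0.15 to 0.12), COX4I1 (-0.032 to 0.21), COX6B1 (-0.027 to 0.23), COX7A2 (-0.057 to 0.42) and PPRC1 (-0.49 to 0.13). The cause of these changes was not tested.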
